A study of Mus musculus with 2 samples.

Results

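The intercalated disc is the specialised contact through which heart muscle cells are joined end to end. Its desmosomes anchor intermediate filaments and its adherens junctions anchor actin, and in mammalian hearts both kinds are mixed over much of the disc, while gap junctions carry the electrical impulse from cell to cell. In humans, variants in the desmosomal genes are a known cause of arrhythmogenic cardiomyopathy. The genes described here are 10 named members of these junctions, all of which were listed among 12395 genes with at least 1 measured transcript. They are the desmosomal plaque genes Dsp, Jup and Pkp2, the desmosomal cadherins Dsg2 and Dsc2, the classical cadherin Cdh2, the alpha-catenins Ctnna1 and Ctnna3, the connexin Gja1 and the scaffold Tjp1. They were chosen by name and function, with earlier results of these data known. All listed transcripts of each were kept, 20 of the 56 annotated.

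Hearts of C57BL/6 mice were sequenced after 2 weeks of a mimic of CHAPIR, a heart piRNA, or of a scrambled mimic used as the negative control (NC). An osmotic minipump implanted for 14 days delivered the CHAPIR mimic at 30 mg/kg, and the NC mimic went by the same route with no dose recorded in the labels. Age and sex are not in the labels used here, nor whether a library holds 1 heart or a pool. Each group held 1 library, so nothing measures the spread between animals, and every difference below compares these 2 libraries, with neither a test nor an error.

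The level of a transcript was treated as FPKM, the number of fragments per kilobase of a transcript, scaled to library size. The level of a gene is the sum over its listed transcripts. Log2 ratios set the CHAPIR level against the NC level after adding 1 FPKM to each, so that changes of low genes are understated, and a gene was counted as higher or lower at 1.5-fold, a log2 ratio of 0.58. The libraries were not matched in Y-linked transcripts. All 4 of 4 such genes examined (Uty, Kdm5d, Eif2s3y and Ddx3y) had a value in the CHAPIR sample and were at 0 in the other. The X-linked gene Xist was also looked for and was not listed in either library. Apparent sex, read here from Y-linked genes only, and mimic cannot be told apart. The heart label held, with all 12 cardiomyocyte markers listed, at a summed 22962 FPKM with CHAPIR and 24522 FPKM with NC, a median log2 ratio of -0.11, with 0 of 12 past 1.5-fold. In whole tissue, fewer cells of a type and less RNA per cell cannot be told apart.

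Summed over transcripts, the junction genes were at nearly the same level in both samples. Of the 10 genes, 0 were higher and 0 lower at 1.5-fold, where 6.81% of the 11416 genes that reached 1 FPKM in either sample were higher and 3.85% lower. The median log2 ratio of the 10 was -0.01, against 0.01 over all tested genes, and single ratios ran from -0.15 (Gja1) to 0.15 (Dsc2), with 4 above 0 and 6 below. On the same scale all 10 lay within 1.2-fold and 7 of 10 within 1.1-fold, as did 67.8% and 43.9% of all tested genes and 74.4% and 49.7% of the 6752 whose mean was at least 5 FPKM. The median size of the log2 ratio, sign set aside, was 0.06 for the 10. It was 0.16 over all tested genes and 0.14 over those with a mean of at least 5 FPKM. The 10 were thus closer than the median gene, but levels as close as these were common in the background and are not particular to junction genes. Together the 10 summed to 591 FPKM with CHAPIR and 588 FPKM with NC.

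**Figure D1:**
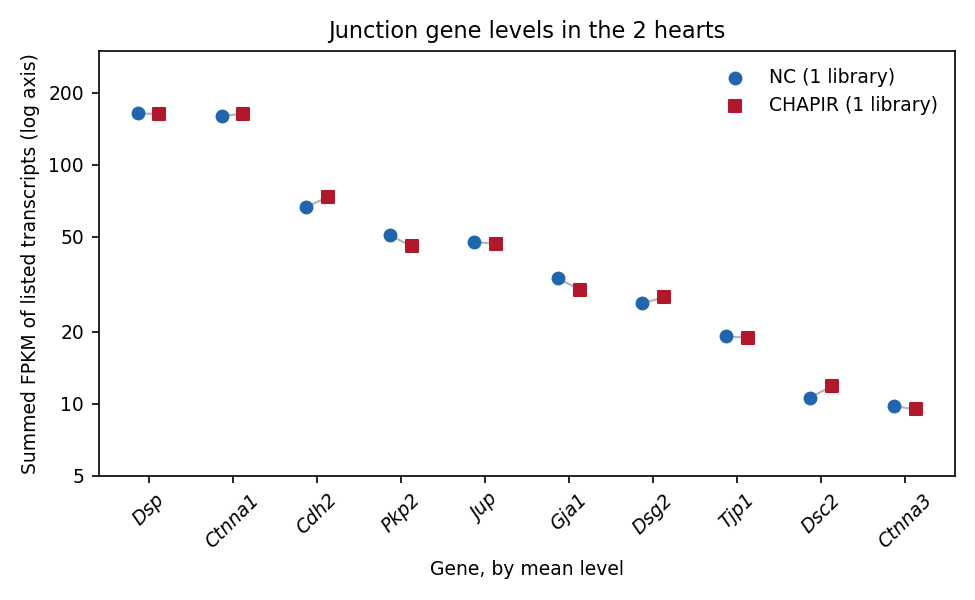
Summed FPKM of each junction gene (log axis) in the NC sample (circles) and the CHAPIR sample (squares), 1 library each, so there are no error bars. Levels span from 9.47 FPKM (Ctnna3, CHAPIR) to 164 FPKM, a range wider than the difference between the samples within any gene.

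The desmosomal plaque links the cadherins of the membrane to desmin filaments. Desmoplakin, encoded by Dsp (ENSMUSG00000054889.10, chromosome 13, 38151294 to 38198577, plus strand, GRCm38), binds the filaments and was at 163 FPKM with CHAPIR and 164 FPKM with NC. Jup (ENSMUSG00000001552.14, chromosome 11, 100368958 to 100397763, minus strand) encodes plakoglobin, the armadillo protein found in both desmosomes and adherens junctions, and was at 46.8 against 47.6 FPKM. Plakophilin-2, encoded by Pkp2 (ENSMUSG00000041957.15, chromosome 16, 16213318 to 16272712, plus strand), was at 45.6 against 50.7 FPKM. Dsp and Jup differed by under 2%, and Pkp2 in the CHAPIR sample was at 0.90 of its NC level, a log2 ratio of -0.15 that 53.3% of all tested genes equalled or exceeded in size. Jup stood at 0.287 of Dsp in the CHAPIR sample and 0.29 in the NC sample, and Pkp2 at 0.28 and 0.309 of Dsp, so the proportions of the plaque genes were close in the 2 samples. These ratios of per-length levels do not depend on how a library is scaled.

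Dsp carried its level on a long and a short transcript, which encode the forms of desmoplakin known as I and II. They differ in the coiled-coil rod, and the long form is known as the main one in heart. The long transcript (ENSMUST00000124830.2), of 2883 codons, was at 123 FPKM with CHAPIR and 129 FPKM with NC. The short transcript (ENSMUST00000127906.7), of 2284 codons, was at 39.6 against 35.1 FPKM. The long form thus made up 75.7% of Dsp in the CHAPIR sample and 78.6% in the NC sample, and it was the more abundant form in both. The short form arises where exon 23 of 24 ends early, which removes 1797 coding bases (chromosome 13, 38191859 to 38193655), and every base of it is also in the long form. The sequences below, from GENCODE M21 transcripts on GRCm38, show the choice, 5' to 3', with shared exon 23 or the end of exon 23 in lower case and what follows in capitals.
Dsp long form reading on through exon 23 (chr13:38191829-38191888, plus strand): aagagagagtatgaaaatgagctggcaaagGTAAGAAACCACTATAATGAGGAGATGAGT
Dsp short form joined to exon 24 from the same point: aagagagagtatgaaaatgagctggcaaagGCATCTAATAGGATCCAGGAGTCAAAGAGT
Dsp long form joined to exon 24 from the far end of exon 23: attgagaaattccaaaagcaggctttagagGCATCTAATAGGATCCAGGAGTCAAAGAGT
In the long form the capitals open with GTAAG, letters with which introns commonly begin, so the sequence that is coding in one transcript is read as intron in the other. The third line ends in the same 30 bases as the second, because both transcripts go on into exon 24.

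The minor transcripts of Jup and Pkp2 added little. The minor transcript of Jup (ENSMUST00000107403.1), which encodes the same 745 codons as the main one (ENSMUST00000001592.14), was at 0.546 against 0.577 FPKM, or 1.17% and 1.21% of Jup. Pkp2 had 2 listed transcripts with a retained intron, at 1.06 against 1.09 FPKM (ENSMUST00000161342.7) and 0.604 against 0.253 FPKM (ENSMUST00000162150.7), beside the coding transcript (ENSMUST00000039408.2) at 43.98 against 49.4 FPKM. The coding transcript therefore made up 96.4% of Pkp2 in the CHAPIR sample and 97.3% in the NC sample.

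The desmosomal cadherins cross the gap between neighbouring cells. Desmoglein-2, encoded by Dsg2 (ENSMUSG00000044393.15, chromosome 18, 20558074 to 20604521, plus strand), was at 27.9 FPKM with CHAPIR and 26.3 FPKM with NC. Desmocollin-2, encoded by Dsc2 (ENSMUSG00000024331.11, chromosome 18, 20030633 to 20059554, minus strand), was at 11.9 against 10.6 FPKM. Both were slightly higher in the CHAPIR sample, with log2 ratios of 0.08 and 0.15, and Dsc2 stood at 0.425 of Dsg2 there and at 0.404 in the NC sample. The 2 genes lie in a cluster of 9 desmosomal cadherin genes that spans 644 kb of chromosome 18. Of these, Dsg2 and Dsc2 were the 2 listed, and Dsc1, Dsc3, Dsg1a, Dsg1b, Dsg1c, Dsg3 and Dsg4 were not, which for this table means no transcript at 0.5 FPKM or more in either library.

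Beneath the even total, the transcripts of Dsc2 went opposite ways. Desmocollins are made in a long form, known as a, whose cytoplasmic tail binds plakoglobin, and a short form, known as b, in which a small exon brings an early stop and the end of the tail is lost. The long form (ENSMUST00000075214.8), with 902 codons, was at 7.68 FPKM with CHAPIR and 2.12 FPKM with NC, 3.63-fold higher. The short form (ENSMUST00000039247.10), with 848 codons, was at 2.56 against 7.73 FPKM, so that the NC sample was 3.01-fold higher. The most abundant transcript of Dsc2 was thus the long form in the CHAPIR sample and the short form in the NC sample. The long form made up 64.7% of Dsc2 in the CHAPIR sample and 19.95% in the NC sample, and the short form 21.6% and 72.8%.

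A further transcript (ENSMUST00000155407.1) is annotated without its beginning and retains introns around the small exon. It was at 1.62 against 0.766 FPKM, or 13.6% and 7.22% of Dsc2. These levels as listed were 2.11-fold higher in the CHAPIR sample. After adding 1 FPKM to each, the log2 ratio of this transcript was 0.57, which did not reach 1.5-fold on that scale. The annotation gives little sequence by which the long and short forms can be told apart. They share 4508 bases, all of the long form, and the short form adds 122 bases, or 2.63% of its length, made up of the 46-base exon 16 of 17 (chromosome 18, 20032490 to 20032535), 33 of whose bases are coding, and 76 bases of the 5' untranslated exon. How the submitters' software shared reads among them is not recorded in the labels, and no read counts were used. Such exchanges were also common in the table. Among 3857 genes with several listed transcripts and a mean of at least 5 FPKM, 22.2% had transcripts past 1.5-fold in opposite directions, 20.2% had a different most abundant transcript in each library, and 7.39% had a transcript share that differed by at least as many points as in Dsc2.

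**Figure D2:**
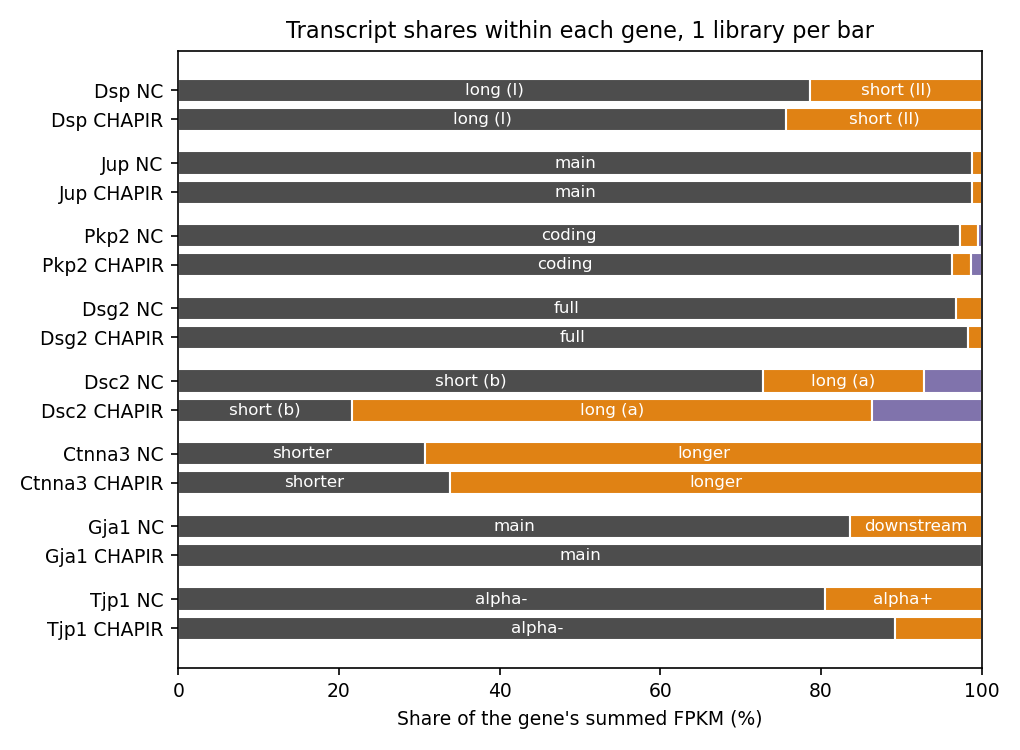
Share of each gene's summed FPKM carried by each listed transcript, for the 8 junction genes with several, 1 bar per library; names are given in the wider segments. In Dsc2 the short form takes 72.8% of the NC bar and 21.6% of the CHAPIR bar, where the long form takes 64.7%, and the downstream Gja1 transcript appears in the NC bar only.

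N-cadherin and the alpha-catenins form the adherens junction of the disc. Cdh2 (ENSMUSG00000024304.14, chromosome 18, 16588877 to 16809246, minus strand) encodes N-cadherin, the classical cadherin of heart muscle, and was at 73.2 FPKM with CHAPIR and 66.6 FPKM with NC. Ctnna1 (ENSMUSG00000037815.7, chromosome 18, 35118859 to 35254779, plus strand), whose product alpha-E-catenin links the cadherin complex to actin, was at 164 against 160 FPKM. Ctnna3 (ENSMUSG00000060843.11, chromosome 10, 63430098 to 65003667, plus strand) encodes alpha-T-catenin, which also binds plakophilin-2, and was at 9.47 against 9.79 FPKM. Cdh2 was 9.95% higher in the CHAPIR sample, a log2 ratio of 0.13 that 56.8% of all tested genes equalled or exceeded, and the alpha-catenins differed by under 4%. Ctnna3 RNA stood at 0.0578 of Ctnna1 RNA in the CHAPIR sample and 0.0613 in the NC sample, so Ctnna1 was the more abundant alpha-catenin in both samples. Ctnna1 is also made by many cells other than heart muscle, and whole tissue does not separate them. Dsg2 stood at 0.382 of Cdh2 against 0.395.

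Cdh2 and Ctnna1 each rested on 1 listed transcript, of 906 codons in both cases. Ctnna3 rested on 2 that encode the same 895 codons and differ in untranslated sequence. The longer (ENSMUST00000105440.7) was at 6.27 against 6.78 FPKM and the shorter (ENSMUST00000075099.4) at 3.21 against 3.01 FPKM, so the former made up 66.2% of Ctnna3 in the CHAPIR sample and 69.3% in the NC sample. Of the 10 genes 4 lie on chromosome 18 (Cdh2, Dsc2, Dsg2 and Ctnna1), and these were the 4 with a log2 ratio above 0, an arrangement seen after the values were known. It depends on the scaling of the libraries. With quantile normalization 5 of the 10 were above 0, and 8 when centred on the cardiomyocyte markers.

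Connexin 43, encoded by Gja1 (ENSMUSG00000050953.10, chromosome 10, 56377330 to 56402513, plus strand), is the main gap junction protein of ventricular muscle. Gja1 was at 30.1 FPKM with CHAPIR and 33.6 FPKM with NC, the lowest log2 ratio of the 10 at -0.15, which 52.0% of all tested genes equalled or exceeded in size. Relative to Cdh2, Gja1 stood at 0.411 in the CHAPIR sample and 0.504 in the NC sample. That log2 difference of -0.30 became -0.04 when only the most abundant transcript of each gene was read. The lower sum of Gja1 lay in its minor transcript. The main transcript (ENSMUST00000068581.8) was at 30.1 against 28.1 FPKM. The other, which starts downstream (ENSMUST00000220069.1), was at 5.49 FPKM in the NC sample, where it made up 16.4% of Gja1, and was listed at 0 with CHAPIR. Taken alone, the main transcript was therefore slightly higher in the CHAPIR sample, by a log2 ratio of 0.10.

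Both Gja1 transcripts encode the same 382 codons on the shared exon 2. They differ in the untranslated exon 1, of 189 bases in the main transcript (chromosome 10, 56377330 to 56377518) and of 300 bases in the other (chromosome 10, 56379088 to 56379387), whose start lies 1758 bases further downstream. The exon particular to the downstream transcript is 9.43% of its length. An exact 0 can be a failed estimate, so no fold is given. In the background of genes with several listed transcripts, 3.63% held a transcript at 0 in either sample and at 5 FPKM or more in the other, and 33.2% had a share that differed by at least as many points as in Gja1.

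Tjp1 (ENSMUSG00000030516.14, chromosome 7, 65296165 to 65527781, minus strand) encodes ZO-1, the scaffold under the membrane that binds the tail of connexin 43. It was at 18.9 FPKM with CHAPIR and 19.2 FPKM with NC, a log2 ratio of -0.02. Its 2 listed transcripts differ by a coding exon known as the alpha domain of ZO-1. In other tissues the form with it is known from most epithelia and the form without it from endothelium. The form without the exon (ENSMUST00000032729.7), of 1685 codons, was at 16.9 against 15.4 FPKM. The form with it (ENSMUST00000102592.9), of 1745 codons, was at 2.03 against 3.75 FPKM, and its log2 ratio was -0.65. The form without the alpha exon was the more abundant in both samples, and the form with it made up 10.7% of Tjp1 in the CHAPIR sample and 19.5% in the NC sample. The 2 transcripts also differ outside the alpha exon, by 224 and 543 untranslated bases at the ends and by 60 coding bases. These shares are therefore not a measure of the use of the alpha exon alone. A difference in share at least as large was seen in 51.9% of genes with several listed transcripts. Endothelial markers had 0 of 12 past 1.5-fold and a median log2 ratio of 0.10, from -0.26 (Emcn) to 0.34 (Kdr), and summed to 708 FPKM against 689 FPKM. Their part in the Tjp1 values was not tested.

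The coding stretches in which the ZO-1 transcripts differ are shown because they distinguish the encoded forms, again from GENCODE M21 on GRCm38, 5' to 3' along the transcript. The alpha exon is exon 20 of 28, 240 bases long (chr7:65314093-65314332, minus strand), given in capitals with 20 bases of its neighbouring exons in lower case.
Tjp1 with the alpha exon: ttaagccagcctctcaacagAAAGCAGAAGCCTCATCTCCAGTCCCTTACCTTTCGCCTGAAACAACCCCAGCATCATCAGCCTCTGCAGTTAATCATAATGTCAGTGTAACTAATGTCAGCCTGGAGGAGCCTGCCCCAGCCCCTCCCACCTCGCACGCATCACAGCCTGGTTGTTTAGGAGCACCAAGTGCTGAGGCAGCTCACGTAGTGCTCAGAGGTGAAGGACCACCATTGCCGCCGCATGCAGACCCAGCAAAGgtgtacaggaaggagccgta
Tjp1 without the alpha exon: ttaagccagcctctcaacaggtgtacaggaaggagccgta
The form without the alpha exon in turn carries 60 coding bases at the end of exon 26 of 27 (chr7:65299670-65299729, minus strand) that the other lacks, in capitals in the next line, and these are the 0.983% of its length not found in the other.
Tjp1 form without the alpha exon, with the extension: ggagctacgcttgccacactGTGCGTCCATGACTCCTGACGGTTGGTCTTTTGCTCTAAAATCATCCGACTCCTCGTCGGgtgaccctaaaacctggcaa
Tjp1 form with the alpha exon, without the extension: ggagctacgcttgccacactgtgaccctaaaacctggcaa
The form with the alpha exon also reaches further at both ends, by 224 bases of exon 1 and by 543 bases of its last exon, both outside the coding sequence.

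**Figure D3:**
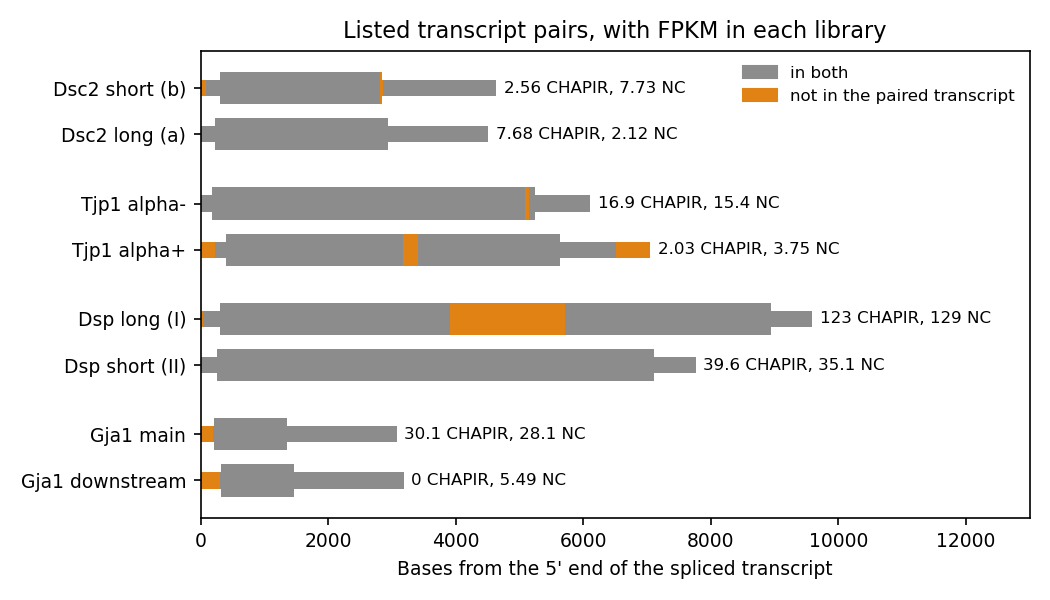
Spliced transcripts of Dsc2, Tjp1, Dsp and Gja1 drawn to scale in bases from the 5' end, coding sequence thick and untranslated sequence thin, with FPKM in each library at the right. Orange marks bases not in the paired transcript, which is 122 bases in the short form of Dsc2 and 0 in the long form, against 1831 in the long form of Dsp.

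Counted by transcript, 17 of the 20 listed transcripts reached 1 FPKM in either sample. Of these 1 was higher at 1.5-fold (the long form of Dsc2) and 3 were lower (the short form of Dsc2, the downstream transcript of Gja1 and the alpha exon form of Tjp1). Over all 18413 transcripts tested, 16.2% were higher and 13.7% lower, so these counts are near the background. None of the 3 genes that hold them passed 1.5-fold in total. Among the minor transcripts below 1 FPKM, a truncated transcript of Dsg2 (ENSMUST00000120102.7), of 360 codons, was at 0.49 against 0.854 FPKM beside the full one (ENSMUST00000059787.14) at 27.4 against 25.4 FPKM.

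By level, the order from the highest was Ctnna1, Dsp, Cdh2, Jup, Pkp2, Gja1, Dsg2, Tjp1, Dsc2 and Ctnna3 in the CHAPIR sample. In the NC sample Dsp stood above Ctnna1 and Pkp2 above Jup, and the other places were alike. With 1 library per group no spread is available to say which neighbours differ. Likeness of pattern to other genes was not computed, since 2 libraries give no pattern.

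**Figure D4:**
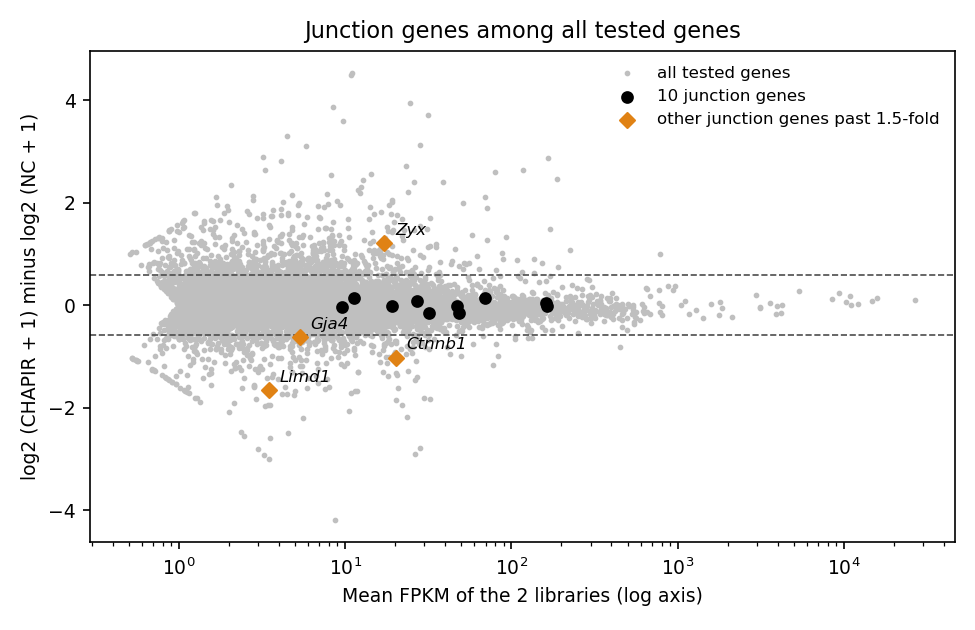
Log2 ratio of each tested gene against its mean FPKM (log axis), with the 10 junction genes in black, other junction genes past 1.5-fold as orange diamonds and dashed lines at 1.5-fold. The black points lie between -0.15 and 0.15, inside the bulk of the 11416 genes.

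Other genes of the same structures were read from 5 lists of 75 entries (Bves under both of its names), of which 55 were tested. Of these, 1 was higher at 1.5-fold and 3 lower, and the median log2 ratio was -0.04. The 51 others did not pass. These counts stand beside a background of 6.81% higher and 3.85% lower. Other desmosome genes had 0 of 6 past 1.5-fold (median 0.15), with Des, the desmin filament that desmoplakin holds, the most abundant at 390.0 FPKM with CHAPIR and 400.0 FPKM with NC. Scaffolds and tight junction genes had 0 of 9 (median -0.13), with the adhesion molecule gene Jam2 the most abundant at 48.2 against 53.1 FPKM. Other disc proteins had 0 of 20 (median -0.09), with Actn2, the actin cross-linker alpha-actinin-2, the most abundant at 385 against 434 FPKM.

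The adherens junction list held most of the genes that passed, 1 higher and 2 lower of 16 (median 0.02). Over all tested genes 6.81% were higher and 3.85% lower, and whether so small a count departs from that was not tested. Its most abundant gene was Cdh5, the cadherin of endothelium, at 54.3 against 49.8 FPKM. Ctnnb1, which encodes beta-catenin, the armadillo protein that joins N-cadherin to alpha-catenin and a Wnt signal transducer, was at 12.9 FPKM with CHAPIR and 27.3 FPKM with NC, a log2 ratio of -1.02. Its full-length transcript (ENSMUST00000007130.14), of 781 codons, was at 12.1 against 23.9 FPKM, and a fragment (ENSMUST00000133689.1) at 0.817 against 3.42 FPKM, so both listed transcripts, of 15 annotated, were lower. Beta-catenin RNA therefore stood at 0.177 of Cdh2 in the CHAPIR sample and at 0.41 in the NC sample. RNA of Jup, whose protein plakoglobin binds cadherins in the same place, stood at 3.62 times Ctnnb1 against 1.74 times, while Jup itself was even. Protein was not measured. These ratios to Ctnnb1 were chosen after its values were seen.

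Limd1, a LIM domain protein of the Ajuba family found at adherens junctions, was at 1.16 against 5.81 FPKM (log2 ratio -1.65) and rested on 1 listed transcript of 5 annotated. Zyx, the LIM protein zyxin of focal adhesions and actin fibres, was higher, at 24.5 against 10.03 FPKM (log2 ratio 1.21). Its 5 listed transcripts were not of one direction. The most abundant (ENSMUST00000070635.12) was at 16.6 against 3.27 FPKM and another (ENSMUST00000203652.2) at 5.95 against 2.53 FPKM, while ENSMUST00000164375.3 was at 0.531 against 4.23 FPKM. The remaining 2 were at 0.598 and 0.791 FPKM with CHAPIR and listed at 0 with NC.

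Among other connexins 0 of 4 were higher and 1 lower (median -0.23). Gja4, the connexin 37 gene of arterial endothelium, was at 3.99 against 6.71 FPKM (log2 ratio -0.63) on its only annotated transcript. It was no longer past 1.5-fold with a pseudocount of 5 FPKM (-0.38) or centred on the cardiomyocyte markers (-0.52). The most abundant was Gjc1, the connexin 45 gene, at 13.2 against 12.8 FPKM. Of the smooth muscle and pericyte markers 1 of 10 was lower and 0 higher. Their median log2 ratio was -0.06 and their levels summed to 369 against 411 FPKM. They ran from Tagln, at 24.2 against 39.2 FPKM, to Cspg4, at 2.94 against 1.87 FPKM. The median hides a split, seen after the values were known. Myh11, Acta2, Tagln and Cnn1 had log2 ratios of -0.55, -0.46, -0.67 and -0.51. The rest of the list ran from -0.11 (Abcc9) to 0.46 (Cspg4). Endothelial markers, given above with Tjp1, had 0 of 12 past 1.5-fold and a median log2 ratio of 0.10. The part of either list in the Gja4 value was not tested. Gja1 lay above all other connexins on the list in both samples.

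**Figure D5:**
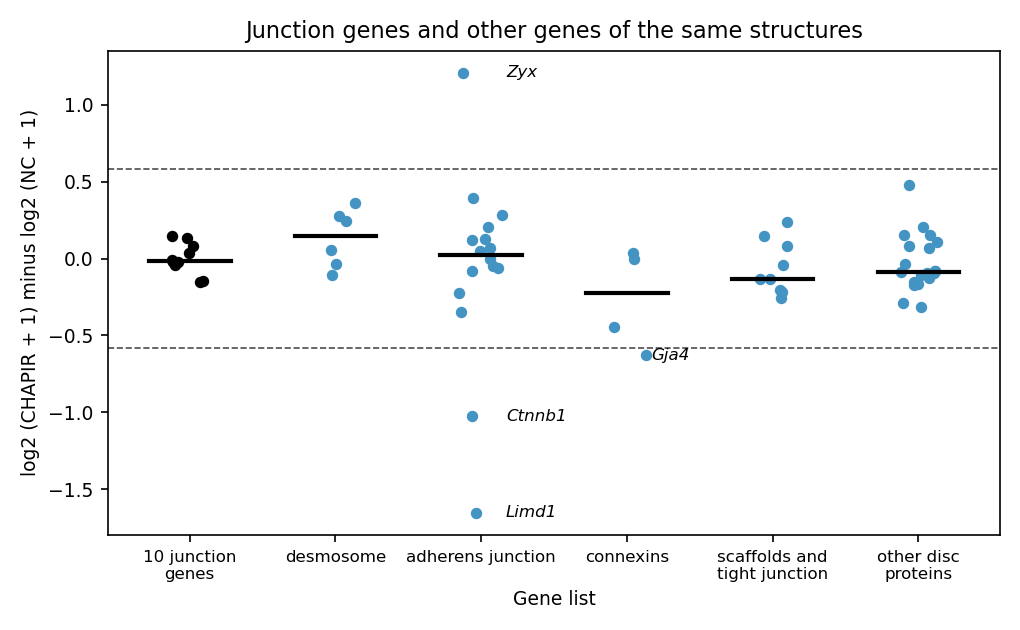
Log2 ratios of the 10 junction genes (black) and of the tested genes of 5 other junction lists (blue), 1 point per gene, with medians as bars and 1.5-fold as dashed lines. Only Zyx lies above the upper line, and Gja4, Ctnnb1 and Limd1 lie below the lower one.

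Markers of other cells of the heart differed more than the junction genes. Marker counts here and above stand beside 6.81% higher and 3.85% lower over all tested genes. Macrophage markers were higher in 5 of 12 and lower in 0, with a median log2 ratio of 0.51 and summed levels of 301 against 181 FPKM. They ran from Mertk, at 4.03 against 3.17 FPKM, to Fcgr1, at 3.19 against 1.05 FPKM. Epicardial and epithelial markers, of interest because such cells make desmosomes too, were higher in 2 of 9 tested, lower in 0, and summed to 27.2 against 18.8 FPKM. The highest ratio was that of Upk1b (3.26 against 1.55 FPKM) and the lowest that of Muc16 (0.636 against 1.07 FPKM), and the epithelial genes Epcam and Cdh1 were not listed. Fibroblast markers were higher in 2 of 10 and lower in 0, from Tcf21 (7.62 against 8.93 FPKM) to Col3a1 (66.7 against 37.4 FPKM). Adipocyte markers were lower in 8 of 9 tested and higher in 1, from Car3 (6.37 against 49.97 FPKM) to Pnpla2 (117 against 62.3 FPKM). With the cardiomyocyte markers as the reference, in which Mybpc3 (532 against 652 FPKM) was lowest and Pln (612 against 602 FPKM) highest, the median log2 ratio of the 10 junction genes was 0.10 and 8 of 10 were above 0, against 4 of 10 on the scale of the table. No junction gene passed 1.5-fold on either scale. What part these other cells have in the transcript shares above was not tested.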

How the data were processed

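The deposited table holds 1 FPKM value per Ensembl transcript and library, computed by the authors. That unit was inferred from the values, since neither the header nor the labels name it; were it TPM, ratios between libraries would change by a constant factor, and shares and ratios within a library would not. The submitters' processing notes name the build GRCm38 and the tools STAR 2.5.2b, HISAT2 2.0.5, cutadapt and StringTie, without their roles. Each of the 23178 transcripts was at 0.5 or more in either library. Depth is unknown, so no counting interval is given.

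Of these, 23128 matched GENCODE M21 (GRCm38) without the version, and 50 were left out. They were summed to 12395 genes with pandas 2.3.3. A pseudocount of 1 FPKM, a minimum of 1 FPKM in either library and a threshold of 1.5-fold were used. With 1 library per group no test was run. The code was checked on simulated gene levels with changes planted past the threshold. That check does not bear on transcript shares or on the spread between animals. Named are the 10 members with every listed transcript, genes of 5 further lists past 1.5-fold, the most abundant gene of each, and the extremes of each marker list. Some smooth muscle and pericyte markers were also named, after their values were seen. Members and lists were chosen with earlier results of these data known. The alternatives were other pseudocounts, filters, scalings and thresholds, and the most abundant transcript in place of the sum.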

Additional observations from a re-analysis of the deposited data

How the results depend on the processing

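No paired analysis was possible because only 1 sample stood for each group. The count of junction genes past 1.5-fold stayed at 0 higher and 0 lower under all alternatives run, except that with the most abundant listed transcript only 1 was lower. That gene was Dsc2, whose log2 ratio became -1.29 because its short form alone was then read, and the log2 ratio of Dsc2 over Dsg2 went from 0.07 to -1.70. The log2 ratio of Gja1 over Cdh2 went from -0.30 to -0.04, with the downstream Gja1 transcript left out. The median of the 10 went from -0.01 to 0.0974 when centred on the cardiomyocyte markers, which shifts all genes alike by 0.11. Of transcripts, 1 higher and 3 lower became 2 higher at a pseudocount of 0.1, where a Dsc2 transcript without its beginning passed, and 0 higher and 1 lower at a mean of at least 5 FPKM, where fewer were tested. At a pseudocount of 5 and at 2-fold, 2 transcripts were lower, as the alpha exon form of Tjp1 no longer passed. Of the other junction genes, 1 higher and 3 lower became 2 higher and 2 lower when centred on the cardiomyocyte markers, 5 lower with the most abundant transcript only, and 4 higher and 5 lower at the lower of the other thresholds. Among the values of single genes, 89 for the 10 junction genes moved by less than 1 SD of the 500 genes nearest in mean level and 1 by more, and 32 and 3 for Ctnnb1, Limd1, Zyx and Gja4, where none changed sign. The 3 were Limd1, at -2.23 and -0.81 with pseudocounts of 0.1 and 5, and Zyx, at 2.05 with the most abundant transcript only. Gja4 was no longer past the threshold at a pseudocount of 5 (-0.38), centred on the cardiomyocyte markers (-0.52) or at 2-fold, each of which left 2 lower, and Limd1 was not tested at a mean of at least 5 FPKM. Shares among complete coding transcripts, the restriction to genes with such a transcript, and ratios between genes on the most abundant transcript were added after seeing the data. Among complete coding transcripts the share of the Dsc2 long form differed by 53.5 points, against 44.8 points with all its listed transcripts. The other shares compared, and the counts of other junction genes under that restriction, were unchanged. What depth limits cannot be stated, since it is unknown.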
